A study of Mus musculus with 2 samples.

Results

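The apolipoproteins and the genes that assemble, remodel and take up lipoproteins were examined in mouse liver at embryonic day 12.5. The set held 31 genes, taken by their GENCODE M21 symbols from a list of apolipoproteins, assembly factors, plasma enzymes, lipase regulators, receptors and intracellular lipid proteins, and all 31 were found among the 55536 Ensembl genes of the deposited gene tables, of which 22028 are protein-coding. The study measured polyA RNA in 2 libraries of 1 group, the liver of B6NCrl embryos (a C57BL/6N substrain) aged 12.5 days, with no treatment or altered allele named in the labels. Replicate 1 was made from the pooled livers of 120 embryos and replicate 2 from those of 88, both sexes mixed, and the labels call them biological replicates. With 1 group there was no condition to compare, so no test was made, and SDs describe the spread between 2 pools.

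Lipoproteins are particles of fat and cholesterol wrapped in phospholipid and apolipoproteins, and they carry lipid through the blood. In the liver, ApoB is loaded with fat in the endoplasmic reticulum by the microsomal transfer protein to make very low density lipoprotein, while ApoA1 and ApoA2 form the frame of high density lipoprotein. Lipases in the vessels release fatty acids from the particles, and receptors on liver cells take up what is left. At this age the liver is also the main site of red cell formation, and hepatoblasts, the precursors of hepatocytes, make its plasma proteins.

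The Apoa1 gene cluster is shown here because its neighbouring genes differ widely in level. The edited site of Apob is shown because the gene's TPM is divided between the full-length transcript and a short model that ends before that site. The first 3 sequences lie just upstream of the M21 start of 3 neighbours in the Apoa1 cluster, all on the plus strand of chromosome 9, from the RefSeq promoter table on GRCm38.p6, with any TATAAA in capitals. The windows end at the base before the M21 start and are shorter for Apoa1 and Apoa4, where the RefSeq window reaches less far upstream. They lie at chr9:46228380-46228579 for Apoa1, chr9:46240594-46240695 for Apoa4 and chr9:46268383-46268632 for Apoa5. For Apoa1 and Apoa4 the main transcript begins at that M21 gene start. For Apoa5 it does not. The transcript with 99.8% and 99.5% of Apoa5 expected counts begins further downstream, at 46269078, and the bases just before it are not shown.
Apoa1: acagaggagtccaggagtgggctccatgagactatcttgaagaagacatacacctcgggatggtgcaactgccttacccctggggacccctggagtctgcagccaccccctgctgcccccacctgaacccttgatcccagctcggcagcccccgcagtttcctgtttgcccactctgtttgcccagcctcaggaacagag
Apoa4: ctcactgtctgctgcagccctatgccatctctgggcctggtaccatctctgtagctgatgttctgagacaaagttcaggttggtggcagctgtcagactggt
Apoa5: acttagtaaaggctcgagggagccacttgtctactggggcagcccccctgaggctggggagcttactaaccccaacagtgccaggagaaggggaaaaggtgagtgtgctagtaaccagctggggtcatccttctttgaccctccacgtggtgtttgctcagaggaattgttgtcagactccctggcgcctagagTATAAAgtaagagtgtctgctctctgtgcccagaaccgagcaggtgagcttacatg

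Of the 3 windows, the Apoa5 window held TATAAA and those of Apoa1 and Apoa4 did not. The Apoa5 match lies before the gene start and not just upstream of the main Apoa5 transcript, so the windows are not alike in this respect. TATAAA was found on either strand in 12.4% of all 32851 RefSeq windows of 250 bases upstream of a start, and in 7 of the 28 windows of the 22 members in that table (of Apoa2, Apoa5, Apob, Apobec1, Apoe and Fabp1). None of the 4 motifs searched contains another. AGGTCA, a nuclear receptor half-site, was in 14.0% of all windows and in 6 of the 28 (of Apoa2, Apoc2, Apoc4, Apoh, Fabp1 and Lipc). GTTAAT, an HNF1 half-site, was in 6.43% of all windows and in 4 of the 28 (of Apoc2, Apoe, Fabp1 and Vldlr). CAAAGTCC, a core of the HNF4A site, was in 1.20% of all windows and in 0 of the 28, and a match or its absence describes these letters only.

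The next sequence is the Apob stretch around the C that the Apobec1 enzyme can change to U, which turns a glutamine codon into a stop and gives the short protein ApoB48. It lies on the plus strand of mm10 at chr12:8008044-8008073, in exon 26 of the 29 of the full-length transcript, with the edited C in capitals and codon 2179 of 4505 beginning with it. The motif tgatcagt that anchors the editing complex begins after 4 further bases.
Apob: atacgcgataCaatttgatcagtatattaa

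Levels are given in TPM, the deposited measure of a gene's transcripts relative to all transcripts of the library, which is per length, so that genes may be set side by side. Of the 31 members, 28 had a mean of 1 TPM or more, against 54.3% of all protein-coding genes, 23 had 10 TPM or more against 32.1%, and 7 had 100 TPM or more against 5.38%. The median member stood at 24.0 ± 0.672 TPM (SD, n = 2), and the median protein-coding gene at 1.81 ± 0.0177 TPM. Together the members took 0.631% ± 0.0150 of all TPM (SD, n = 2), a total that also holds globin RNA and the added ERCC spike-in RNA, and 0.519% of the expected counts. The 13 apolipoproteins made up 86.7% of the members' summed TPM, and Apoa2, Apoa1 and Apoe alone 70.3%.

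**Figure D1:**
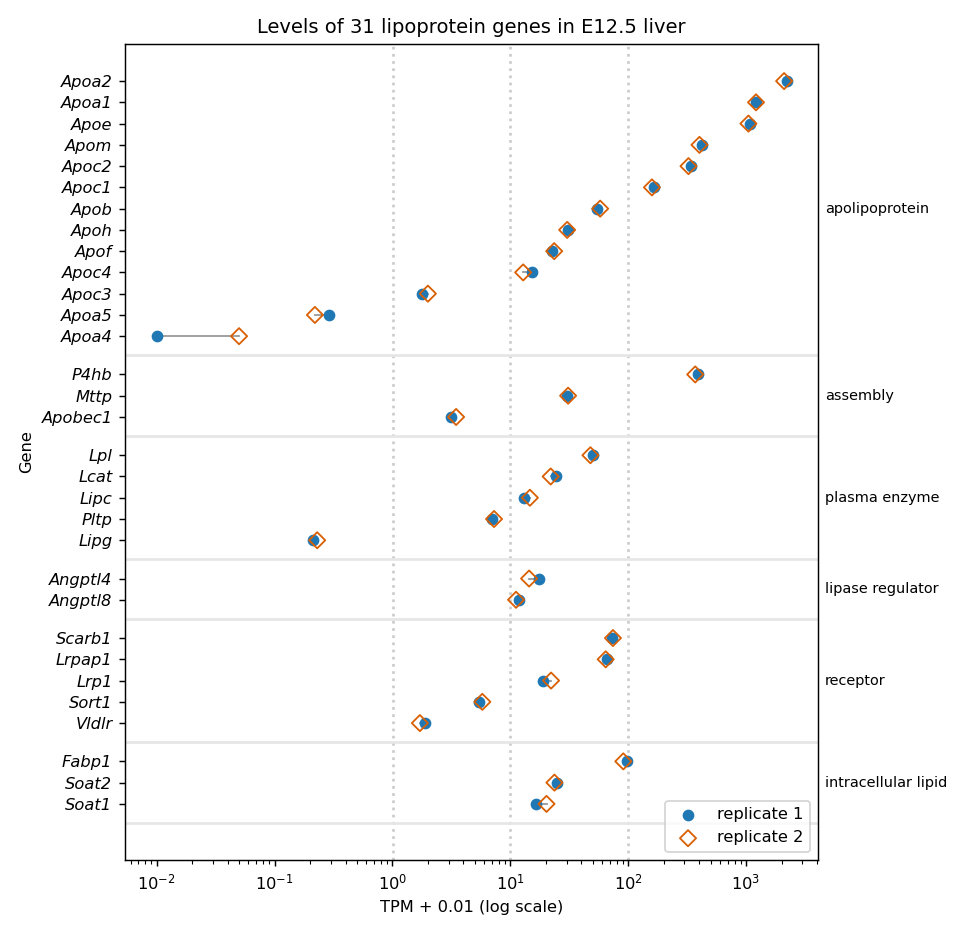
TPM plus 0.01 on a log axis for each of the 31 members, grouped by role, with filled circles for replicate 1 and open diamonds for replicate 2. The libraries lie close together for most genes from 2216 TPM (Apoa2) down to 11.2 TPM (Angptl8), and the 3 members under 1 TPM are Apoa5, Lipg and Apoa4.

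In the order of levels, the ranges of the 2 libraries overlapped for 9 of the 30 neighbouring pairs. These were Mttp with Apoh, Soat2 with Lcat, Lcat with Apof, Lrp1 with Soat1, Soat1 with Angptl4, Angptl4 with Apoc4, Apoc4 with Lipc, Apoc3 with Vldlr and Apoa5 with Lipg. The ranges of every other neighbouring pair, among them all pairs from Apoa2 down to Mttp, did not overlap.

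The tissue label was set against markers. All 8 hepatoblast markers, Afp and Alb among them, were at 10 TPM or more and summed to 9466 and 9203 TPM, and the 8 erythroid markers summed to 239998 and 244474 TPM. All 10 macrophage markers passed 1 TPM (sums of 282 and 284 TPM), as did all 6 of endothelium (88.6 and 85.5 TPM) and all 7 of mesenchyme (397 and 419 TPM). Of 8 gut epithelium markers 3 passed 1 TPM, and Cdx1, Cdx2, Vil1, Muc2 and Sis did not. Of 5 adipocyte markers Fabp4 alone passed, with Adipoq, Plin1, Cidec and Lep under 1 TPM, and of 6 yolk sac endoderm markers Cubn and Lrp2 did not. Which of these cells held the RNA of each member was not tested, and in bulk tissue fewer cells of a type and less RNA per cell cannot be told apart.

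Among the apolipoproteins of high density lipoprotein, Apoa2 was the highest member, at 2216 TPM in replicate 1 and 2104 TPM in replicate 2. Apoa1, which encodes the main protein of the particle and the activator of cholesterol esterification, stood at 1208 and 1215 TPM. Both libraries thus had more Apoa2 than Apoa1, by a TPM ratio of 1.78 ± 0.0737 (SD, n = 2). Apom, the carrier of sphingosine-1-phosphate on high density lipoprotein, was at 426 and 403 TPM. Apof, a regulator of lipid transfer between particles, was far lower at 22.8 and 23.6 TPM.

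Apob, the single large protein that holds each very low density particle together, was at 54.1 and 57.9 TPM. Apoa1 TPM was 21.7 ± 0.924 times that of Apob (SD, n = 2), or, with complete coding transcripts only, Apob TPM was 0.0269 of Apoa1 in place of 0.0462. Apoh, beta-2-glycoprotein I, a phospholipid-binding plasma protein, was at 30.8 and 30.4 TPM, level with Mttp.

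The Apoa1 cluster spans 43.3 kb of chromosome 9 (mm10, 46228580 to 46271919) and holds the widest range of levels among the members. Next to Apoa1, Apoc3, an inhibitor of lipoprotein lipase and of particle uptake, lies on the minus strand and was at 1.77 and 1.99 TPM, from 23 and 22 counts. Apoa4, an apolipoprotein of gut and liver particles, was listed at 0 and 0.04 TPM, from 0 and 2 counts, and both values lie below the 0.0535 and 0.0578 TPM that 3 counts are worth, the limit that a count of 0 allows. Apoa5, an activator of lipoprotein lipase, stood at 0.28 and 0.21 TPM, from 19.9 and 13.6 expected counts. Both libraries placed Apoa1 first and the other 3 genes under 2 TPM.

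Expected counts of the 2 libraries were also summed and divided by each gene's mean effective length, as deposited. By that measure Apoa1 was 647 times Apoc3 (exact 95% Poisson interval of 484 to 887). Against Apoa5 it was 4972 times higher (3591 to 7325). Over Apoa4, with 2 counts in all, the ratio was 65383, with an interval of 18100 to 539890. Intervals here cover counting error only, since the reads carry no molecular identifiers. The gene that follows the cluster, Zpr1, stood at 47.0 and 46.3 TPM. Antisense models overlap Apoa4 and Apoa5, and the use of strand is not given, but Gm47528 and Gm10680 were at 0 in both libraries and Gm47544 at 0.01 and 0.11 TPM.

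**Figure D2:**
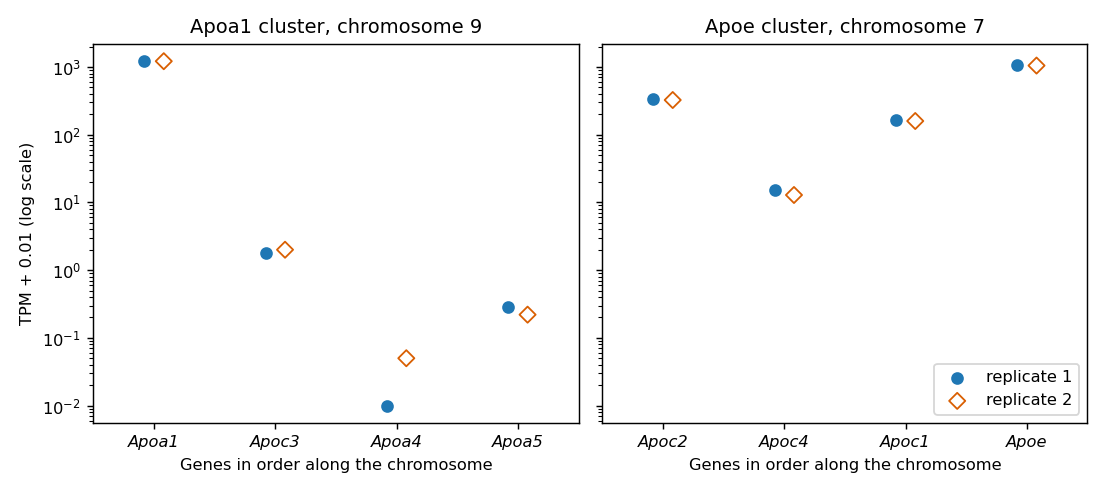
TPM plus 0.01 on a log axis for the 4 apolipoprotein genes of each cluster in chromosomal order, with filled circles for replicate 1 and open diamonds for replicate 2. In the Apoa1 cluster Apoa1 stands at over 1200 TPM and its neighbours under 2 TPM, and in the Apoe cluster the lowest gene, Apoc4, is at 15.2 and 12.9 TPM.

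In the Apoe cluster, 27.6 kb of chromosome 7 (19671579 to 19699188) with all 4 genes on the minus strand, each gene was above 10 TPM. Apoe, the ligand by which receptors clear remnant particles, was at 1081 and 1048 TPM. Apoc1, an inhibitor of receptor uptake, stood at 165 and 159 TPM, a TPM ratio to Apoe of 0.152 ± 0.0008 (SD, n = 2). Apoc2, the cofactor that lipoprotein lipase needs, was at 340 and 325 TPM, which is 2.05 ± 0.0119 times Apoc1. Apoc4, a minor apolipoprotein, was at 15.2 and 12.9 TPM, and Apoc2 exceeded it by 23.9 ± 1.99 times (SD, n = 2). The libraries kept the order Apoe, Apoc2, Apoc1 and Apoc4.

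Apoc2 and Apoc4 share reads with Gm44805, a gene model that runs over both. It was given 2.27 and 4.12 TPM, with a posterior SD of 84.6 and 103 counts against 39.0 and 64.8 expected counts, so its own level is uncertain. For Apoc2 the posterior SD was 1.46% and 2.00% of its count, and for Apoc4 0.944% and 1.20%. The neighbour Tomm40, which encodes a mitochondrial import channel, stood at 173 and 158 TPM.

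Lipoprotein assembly was represented by 3 members. Mttp, the large subunit of the microsomal transfer protein, was at 30.5 and 30.9 TPM. P4hb, protein disulfide isomerase, which is also the small subunit of that protein, stood at 393 and 371 TPM, 12.4 ± 0.639 times Mttp (SD, n = 2). P4hb is also known as a folding enzyme of other secreted proteins. The TPM ratio of Mttp to Apob was 0.549 ± 0.0202 (SD, n = 2), and 0.882 with complete coding transcripts only.

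Apobec1, the enzyme that edits Apob at the C shown above, was at 3.14 and 3.46 TPM, from 131 and 137 counts. Of the proteins known to work with it, A1cf was at 7.22 and 6.70 TPM, Rbm47 at 7.89 and 7.56 TPM and Syncrip at 66.3 and 64.4 TPM. The editing itself cannot be read from these tables, which count reads per gene and transcript.

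The plasma enzymes ran from 50.7 TPM to under 1 TPM. Lpl, lipoprotein lipase, was at 50.7 and 47.8 TPM, and Lipc, hepatic lipase, at 13.0 and 14.7 TPM. Lpl thus exceeded Lipc in both libraries, by a TPM ratio of 3.59 ± 0.461 (SD, n = 2), or 1.51 with complete coding transcripts only. Lipg, endothelial lipase, stood at 0.20 and 0.22 TPM, from 24 counts in each library, with Lipc 65.7 ± 1.33 times higher. Lcat, which esterifies cholesterol on high density lipoprotein with ApoA1 as activator, was at 24.5 and 22.0 TPM. Pltp, the phospholipid transfer protein, was at 7.03 and 7.27 TPM.

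Of the lipase regulators, Angptl4, an inhibitor of lipoprotein lipase, was at 17.6 and 14.4 TPM. Angptl8, a secreted regulator of the same lipase, stood at 11.8 and 11.2 TPM, a TPM ratio to Angptl4 of 0.723 ± 0.0736 (SD, n = 2). That order turned with complete coding transcripts only, where Angptl8 was 5.37 times Angptl4. Among partners outside the set, Lmf1, which the lipases need for folding, was at 12.6 and 12.0 TPM. Gpihbp1, which holds lipoprotein lipase on capillary endothelium, was low at 2.58 and 1.33 TPM.

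Scarb1, the receptor for high density lipoprotein, led the receptors at 73.1 and 74.3 TPM. Lrpap1, the chaperone that keeps Lrp1 and related receptors from binding ligands too early, followed at 65.8 and 64.5 TPM. Lrp1, a receptor for remnant particles, was at 19.1 and 22.2 TPM, so that Lrpap1 TPM was 3.17 ± 0.377 times Lrp1 (SD, n = 2). Sort1, a sorting receptor that steers ApoB particles, stood at 5.47 and 5.78 TPM. Vldlr, the very low density lipoprotein receptor, was the lowest of the receptors at 1.87 and 1.70 TPM.

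Scarb1 TPM was 3.59 ± 0.333 times Lrp1, and Lrp1 TPM was 3.67 ± 0.241 times Sort1 and 11.6 ± 1.99 times Vldlr (SD, n = 2). These 3 ratios, and that of Lrpap1 to Lrp1, depend on Lrp1, whose gene TPM is spread over incomplete transcripts. With complete coding transcripts only, Scarb1 was 8.96 times Lrp1, Sort1 was 0.718 of Lrp1 in place of 0.273, and Vldlr was 0.184 of Lrp1 in place of 0.0872. Lrpap1 was then 3.89 times Lrp1 in place of 3.17.

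Inside the cell, Fabp1, the liver fatty acid binding protein, was at 98.4 and 91.0 TPM. It exceeded Apob by a TPM ratio of 1.69 ± 0.174 (SD, n = 2), or 2.94 with complete coding transcripts only. Soat2, which makes cholesteryl ester in lipoprotein-producing cells of liver and gut, stood at 25.0 and 23.7 TPM. Soat1, the more widely expressed enzyme of that reaction, was at 16.4 and 20.3 TPM. Its TPM was 0.756 ± 0.143 of Soat2, or 0.524 with complete coding transcripts only. Soat2 was the higher isozyme in both libraries.

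A wider list of 99 genes of lipoprotein biology outside the set gave 97 that were found. Of these 97, 72 were at 1 TPM or more, against 54.3% of all protein-coding genes, and 39 at 10 TPM or more, against 32.1%. At 100 TPM or more there were 6, against 5.38%. The median of the list was 6.75 TPM, and that of all protein-coding genes 1.81 TPM. The 4 highest were Fabp5 (890 and 882 TPM), a fatty acid binding protein of many tissues, and the endoplasmic reticulum folding proteins Hspa5 (564 and 548 TPM), Pdia3 (305 and 295 TPM) and Pdia4 (123 and 119 TPM). Hnf4a, a hepatocyte transcription factor known to act at apolipoprotein genes, was at 12.9 and 12.6 TPM. Abca1, which loads cholesterol onto ApoA1, was at 8.48 and 8.16 TPM.

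Transcript tables divide each gene's TPM among its annotated transcripts. Of the 31 members 25 have more than 1 transcript, 23 of these were at 1 TPM or more, and 15 had a second transcript at 10% or more of the gene's TPM in both libraries, against 60.8% of the 10920 protein-coding genes treated alike. A share of this kind is per length, so a short transcript with few reads can take a large part.

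Apob is the clearest case. The full-length transcript, of 13934 bases, held 31.5 and 33.2 TPM, or 58.1% and 57.3% of the gene's TPM, and 94.96% and 94.79% of its counts. A model of 1118 bases with an unfinished end held 22.7 and 24.7 TPM on 5.04% and 5.21% of the counts. It ends at position 7987818 of chromosome 12, 20236 bases before the edited C, so it does not hold that site.

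In Angptl4, a transcript annotated for nonsense-mediated decay, the removal of RNA with an early stop, held 14.8 and 12.2 TPM (84.0% and 84.8%), and the coding transcript 2.64 and 1.78 TPM. For Lpl a transcript of the same class held 30.9 and 28.2 TPM (60.9% and 59.0%) and the coding one 19.1 and 18.8 TPM. The coding transcript of Lpl nevertheless took most of its counts, 57.1% and 58.5%, being 4115 bases long against 1900.

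For Lrp1 the full-length transcript of 14888 bases had 5.97 and 6.05 TPM, less than a retained intron model of 763 bases at 6.90 and 7.25 TPM. By counts the order turned, with 79.9% and 77.5% on the full-length transcript and 4.14% and 4.17% on the short one. In Lrpap1 a model with an unfinished end (30.3 and 29.2 TPM) and the complete transcript (29.0 and 28.9 TPM) were close.

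Counting only complete coding transcripts, those annotated as protein-coding with no unfinished start or end, 4 of the 23 members at 10 TPM or more had under 50% of their TPM in them in both libraries, against 14% of the 7061 protein-coding genes at that level. They were Lrpap1 (44.0% and 44.9%), Lpl (37.8% and 39.3%), Lrp1 (39.5% and 33.1%) and Angptl4 (15.0% and 12.3%). By share of expected counts Angptl4 alone was under 50%, at 24.5% and 20.8%. This count was added after the transcript tables had been seen.

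**Figure D3:**
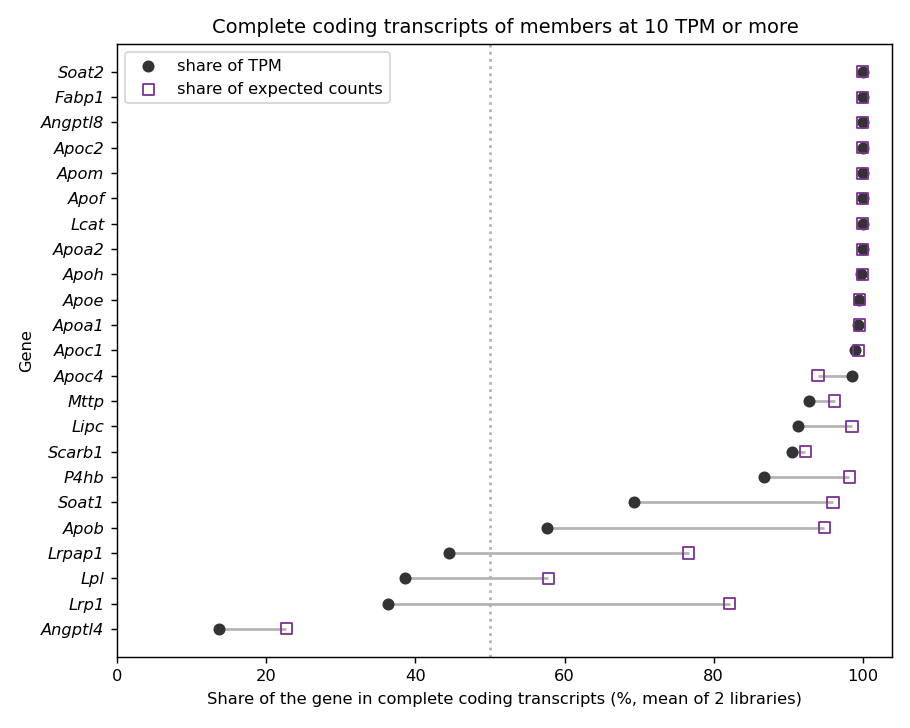
Share of each gene in complete coding transcripts, in percent and as the mean of 2 libraries, for the 23 members at 10 TPM or more, with filled circles for the share of TPM and open squares for that of expected counts. Angptl4, Lrp1, Lpl and Lrpap1 lie left of the dotted line at 50% by TPM, and by counts Angptl4 alone does.

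Of the 7 members at 100 TPM or more, Apoa2, Apoe and Apoc2 had a second complete coding transcript at 10% or more of TPM in both libraries. Apoa2 was divided between transcripts with 62.6% and 66.7% and with 28.2% and 26.4% of its TPM, whose M21 starts lie at 171225082 and 171225054 of chromosome 1. Apoe had 85.8% and 85.7% in 1 transcript and 12.7% and 12.8% in another. Apoc2 was divided 69.6% and 70.5% against 30.4% and 29.5%. Apoa1, by contrast, had 99.3% in 1 transcript in both libraries, and Apoc1 95.7% and 93.7%. In Scarb1 the main transcript held 63.4% and 70.7% and the second 26.0% and 20.9%.

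Soat1 was spread over 2 complete transcripts and a fragment. The shorter complete transcript, of 2925 bases, held 46.1% and 49.5% of its TPM, and the longer, of 8371 bases, 23.2% and 19.8% of TPM but 57.3% and 51.8% of the counts. An unfinished model of 366 bases held 20.7% and 17.5% of TPM on 1.64% and 1.48% of the counts. Sort1 was divided between complete coding transcripts with 63.0% and 67.5% and with 31.02% and 28.37% of its TPM. P4hb kept 82.4% and 82.1% in its coding transcript, and a processed transcript of 414 bases took 13.1% and 13.5%. In Mttp the main coding transcript held 90.8% and 89.97%, so its gene TPM and its coding TPM lie close. Apom, Fabp1, Lcat, Apof, Angptl8 and Apoa4 have a single annotated transcript each, and the question does not arise for them.

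Among the members under 10 TPM, Apoc3, Apobec1 and Vldlr had transcript shares that differed widely between the libraries. In Apoc3 the coding transcript held 63.6% of TPM in replicate 1 and 20.1% in replicate 2, from 15.6 and 5.17 expected counts, with a posterior SD of 35.7% and 84.7% of those counts. The gene level of Apoc3 differed much less between libraries than this split did. With complete coding transcripts only, Apoc3 TPM was 0.000633 of Apoa1 in place of 0.00155. For Apobec1 the main coding transcript held 1.47 and 1.91 TPM and a retained intron model 1.26 and 0.82 TPM. The retained intron model had 18.9 and 11.4 expected counts, with a posterior SD of 30.4% and 48.6% of those counts. Vldlr was divided among several transcripts whose order differed between libraries. The coding Vldlr-202 held 48.1% and 24.9%, with a posterior SD of 26.3% and 44.6% of its counts. Vldlr-201, annotated for nonsense-mediated decay, held 9.63% and 30.2%, with a posterior SD of 108% and 42.8% of its counts. Whether the shares of Apoc3, Apobec1 and Vldlr differ between the libraries is thus uncertain.

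The libraries were compared as a measure of precision, with expected counts of 38293265 and 35399872 in all. After TMM scaling, 30 members with a mean count of at least 10 were compared and Apoa4 was not. None of the 30 passed 1.5-fold, against 8.91% of all 17343 genes, and against 0.78% of the 12047 genes with a mean of 100 counts or more, which 27 members reach. The median log2 ratio of replicate 2 to replicate 1 was -0.03 for the members and -0.003 for all genes. By TPM 17 members were higher in replicate 1 and 14 in replicate 2.

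The log2 ratio ran from -0.42 for Apoa5 (exact 95% binomial interval -1.50 to 0.66) to 0.23 for Soat1 (0.13 to 0.32). For 10 of the 30 members the interval excluded 0, against 22.5% of all 17343 genes and 26.2% of the 12047 with a mean of 100 counts or more, which those 10 reach, so nothing particular to the members is read from it. At 95% some intervals exclude 0 by counting error alone, and those of Fabp1, Apoc2 and Lcat ended near 0, at -0.001, -0.009 and -0.02. The intervals also leave out the uncertainty in dividing reads, a posterior SD of 1.46% and 2.00% of the count for Apoc2. Whether the libraries differed by more than counting error was thus not settled for each of the 10. Angptl4, at -0.33 (-0.46 to -0.20), and Lcat, at -0.15 (-0.29 to -0.02), were the largest of the 10 in the direction opposite to Soat1. Soat1 and Angptl4 also lay outside the 5th to 95th percentile of all genes of like count, a range that leaves out 10% of genes by construction, and the other members lay inside.

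**Figure D4:**
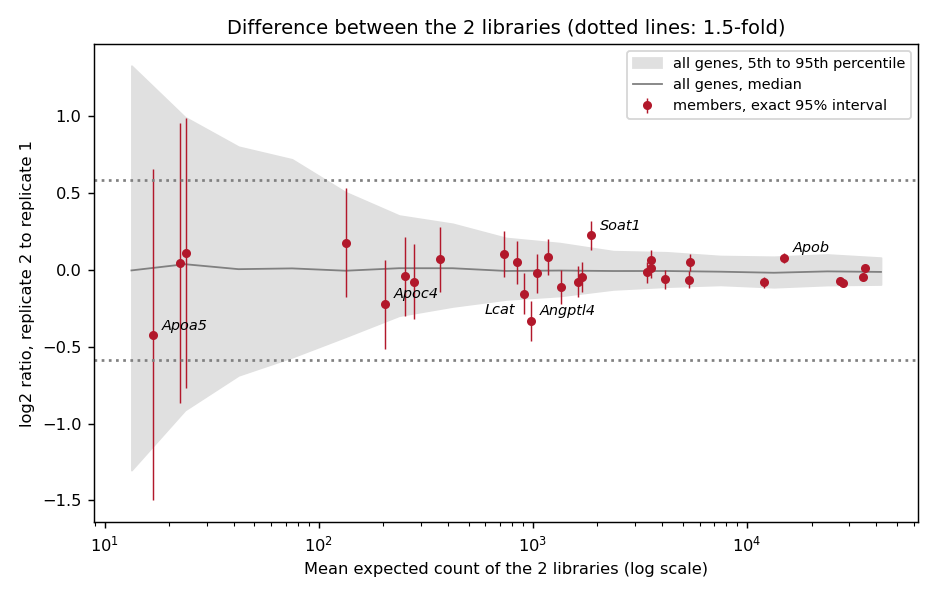
Log2 ratio of replicate 2 to replicate 1 against the mean expected count (log axis) for 30 members, with exact 95% binomial intervals, over the 5th to 95th percentile (grey band) and median (grey line) of all genes in the same count range. Dotted lines mark 1.5-fold, which no member passes, and Soat1 and Angptl4 lie outside the band.

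Each library was also quantified with the older annotation GENCODE M4. Of the 28 members at 1 TPM or more under either annotation, none differed by 1.5-fold in both libraries on the log2(TPM + 1) scale, against 5.51% of all 13235 genes compared. The median log2 difference, M21 over M4, was -0.05 over all 31 members, without that filter, and -0.04 over the 13235 genes compared. Of the 31, 24 were higher in M4 in both libraries, Apoa5 of under 1 TPM among them, and 4 in M21. Apobec1 differed in sign between the libraries, and Lipg and Apoa4 had a difference of 0 in at least 1 library. The share of all genes that were higher in M4 was not counted. The median of all genes compared was also negative, so nothing particular to the members is read from the 24. Apof moved most, from 15.0 and 15.5 TPM in M4 to 22.8 and 23.6 TPM in M21, a log2 difference of 0.57 and 0.58 with 1 TPM added to each value. With 0.1 TPM added in its place, Apof passed 1.5-fold in both libraries. Sort1 moved the other way, by -0.29 in both libraries, and Apoc4 by -0.21 and -0.23.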

How the data were processed

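Gene and transcript quantifications of 2 polyA RNA-seq libraries of E12.5 liver were analysed. Per the labels' protocols, RNA was extracted with mirVana, 10 ng was used with ERCC spike-ins, and libraries were made with SMARTer and Nextera. The expected counts are as deposited, reads divided by the authors among genes or transcripts. The TPM values are as deposited by the authors and are relative to all entries, spike-ins included (4.99% and 5.40% of TPM). The posterior SD of the count is as deposited, per the file headers, and says how firmly reads were divided. Which aligner, quantifier and strand setting were used is not given in the sources used here. The notes deposited with each library name mm10 and, for each table, GENCODE M4 or M21, and M21 was used except where M4 is named. Of 81881 entries 55536 are Ensembl genes, which hold 97.1% and 96.9% of the expected counts, 96 are spike-ins, and 26249 others, 0.0012% of TPM, were left out.

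TPM was averaged over the 2 libraries. Libraries were compared with TMM scaling in edgeR 4.0.16 (R 4.3.3) with a prior count of 0.5 on genes whose mean expected count reached 10, and intervals are exact binomial on counts rounded to whole numbers. The calculation was tested on simulated data. Annotations were compared as log2(TPM + 1), with genes at 1 TPM or more under either. Alternatives were scaling by DESeq2 1.42.0, spike-ins or total counts, other filters, prior counts, pseudocounts and folds, rescaled or posterior mean TPM, M4 and each library alone. Complete coding transcripts, and the shares of all genes by count range and by interval, were chosen after seeing the data.

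Values are printed for every member. Genes outside the set are named where they are the 4 highest of the wider list or partners of a member, and Rbm47, Syncrip and the cluster neighbours were added after their values had been seen. Some genes that this rule selects are left out of the text. The members and lists were chosen with earlier results of these data known.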

Additional observations from a re-analysis of the deposited data

How the results depend on the processing

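Of 148 values recomputed under an alternative, 109 moved by less than 1 SD of the 2 libraries or, for counts, stayed within 1.5 times the main count, 38 moved further and 1 reversed. For the ratios, the median and the summed share, a value from 1 library alone lies within 1 SD by construction. Such values are among the 109 and are no check. The reversal was the TPM ratio of Angptl8 to Angptl4, 0.723 and, with complete coding transcripts only, 5.37. The median of the members, 24.0 TPM, became 25.4 TPM rescaled to genes, 34.5 TPM with globins also left out of the total and 22.4 TPM with complete coding transcripts. Of the counts that stayed within 1.5 times, the 7 members at 100 TPM or more became 9 with globins left out, the 23 at 10 TPM or more became 24 with globins left out and 21 with complete coding transcripts, and the 28 at 1 TPM or more became 27 with complete coding transcripts. The 15 members with a second transcript became 11 at a share of 20%, 14 with M4 and 15 to 16 from 1 library alone. The members' summed share, 0.631% of TPM, became 0.666% and 0.906% under those rescalings, 0.655% with M4, 0.611% with complete coding transcripts and 0.519% of expected counts. With no filter on low counts 1 member passed 1.5-fold between libraries (Apoa4, with 0 and 2 counts, log2 2.37) in place of 0, and 9247 of 55536 genes did in place of 1545 of 17343. With a minimum of 100 counts 94 of 12047 genes passed. With a pseudocount of 0.1 TPM 1 member passed 1.5-fold between annotations (Apof) in place of 0. By expected counts 1 member in place of 4 had under 50% in complete coding transcripts. DESeq2 size factors, spike-in scaling and total count scaling gave 0 members.

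Leaving out a library cannot be done for the comparison of the libraries themselves. No paired analysis was possible because there is a single group. Depth limits Apoa4, Apoa5, Apoc3 and Lipg, with 0 to 24 counts in a library, and the transcript shares of Apoc3, Apobec1 and Vldlr.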
